A study of Mus musculus with 6 samples.

Results

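The solute carriers examined here move inorganic ions and metals across membranes. They are the protein-coding genes of the deposited table whose symbols begin with Slc4a, Slc8a, Slc9a, Slc11a, Slc12a, Slc20a, Slc24a, Slc26a, Slc30a, Slc34a, Slc39a, Slc40a or Slc41a followed by a digit. This rule took 85 of the 47729 genes listed, 21979 of which are protein-coding, and it used names only, not expression. By ion, 22 genes belong to bicarbonate and other anion exchange (Slc4, Slc26), 11 to sodium-proton exchange (Slc9) and 9 to cation-chloride cotransport (Slc12). A further 8 belong to sodium-calcium exchange (Slc8, Slc24), 5 to phosphate uptake (Slc20, Slc34) and 3 to iron and manganese transport (Slc11, Slc40). Zinc export (Slc30) has 10, zinc import (Slc39) 14 and magnesium (Slc41) 3. The name rule also takes 3 genes that encode no transporter: Slc9a3r1 and Slc9a3r2, which encode the scaffold proteins NHERF1 and NHERF2, and Slc4a1ap, which encodes an adaptor protein.

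Cells keep their pH, volume and calcium with carriers that spend the sodium gradient across the cell membrane. Slc9 proteins swap sodium for protons, Slc4 proteins carry bicarbonate, and Slc12 proteins move chloride with sodium or potassium, which sets cell volume. Metals are handled in pairs of opposed families. Slc39 (ZIP) proteins bring zinc into the cytosol and Slc30 (ZnT) proteins take it out, while iron enters through Slc11a2 and leaves through Slc40a1. The transcription factor MTF1 senses zinc and, through short DNA motifs called metal response elements, is known to raise the metallothioneins Mt1 and Mt2 and the exporter Slc30a1 and to hold down the importer Slc39a10. Iron-regulatory proteins bind RNA hairpins in Tfrc, Slc11a2 and Slc40a1 mRNA. The mammary gland uses Slc30a2 and Slc30a4 to load zinc into milk.

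RNA was sequenced from the mouse mammary carcinoma lines 4T1 and 4TO7, both of BALB/c strain and from a spontaneous tumour, each cultured in triplicate in DMEM with foetal bovine serum and left untreated. As background, 4T1 cells spread from the mammary gland and form metastases in distant organs, whereas 4TO7 cells spread but rarely form them. Each line is a single line of cells, so a difference between them is a difference between these lines. The labels do not say that the 3 cultures were separate experiments. A p-value therefore covers the scatter among these 6 libraries alone, and that scatter may be technical. The 6 libraries held 33605566 to 39072639 reads. 4TO7 replicate 2 stood apart within its line, correlating across genes with 4TO7 replicates 1 and 3 at r = 0.98 and 0.978, while those correlated with each other at 0.993. Among all 6997 genes that differed between the lines it was the 4TO7 library nearest to 4T1 in 62.5%, and among the solute carriers that differed in 20 of 34. All 8 epithelial markers checked (Cdh1, Epcam, keratins and claudins) were detected, and their summed normalised count ran from 191097 to 214195 in 4T1 and from 25838 to 42475 in 4TO7. Epcam averaged 16980 in 4T1 and 23.7 in 4TO7, and Cdh1 19352 and 170. The 4TO7 sum thus came almost wholly from the other epithelial markers. The sum of 8 mesenchymal markers ran from 211513 to 235123 and from 122711 to 165295. Among these, Vim alone averaged 112404 in 4T1 and 97123 in 4TO7, and Col3a1 was at 0 in every library. Of 8 leukocyte markers, 7 were under 10 in every library (Adgre1, Cd3e and Tyrobp at 0) and the sum, nearly all Cd68, ran from 229 to 438 in 4T1 and from 96.4 to 171 in 4TO7. Of 5 endothelial markers, 4 were under 10, with sums of 27.9 to 69.6 and 57.7 to 77.6. The part of these marker differences in the results was not tested. In bulk RNA, fewer cells that express a gene and less RNA per cell cannot be told apart.

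Of the 85 genes, 53 passed the filter on low values (a normalised count of 10 or more in 3 or more of the 6 libraries), 32 did not, and 11 of these had 0 reads in every library. Normalised counts are reads divided by 1 size factor per library. The lines were compared with limma on log2(normalised count + 1), and every adjusted p is from that fit over all 14276 genes tested. A gene passed at an adjusted p under 0.05. By that rule 34 of the 53 differed (64.2%), against 49.0% of all genes tested. Higher in 4T1 were 18 (all genes, 25.1%) and higher in 4TO7 were 16 (all genes, 23.9%). The median log2 fold change, 4T1 minus 4TO7, was -0.01 over the 53 and 0.03 over all genes. The libraries of the lines did not overlap for 32 of the 53 (60.4%), against 58.4% of all genes tested. Changes of at least 2-fold were found for 19 (35.8%), against 27.5%. The direction was thus nearly balanced, and the sections that follow give it ion by ion. A fold is the ratio of the line means of normalised counts, and means are given ± SD with n = 3.

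**Figure D1:**
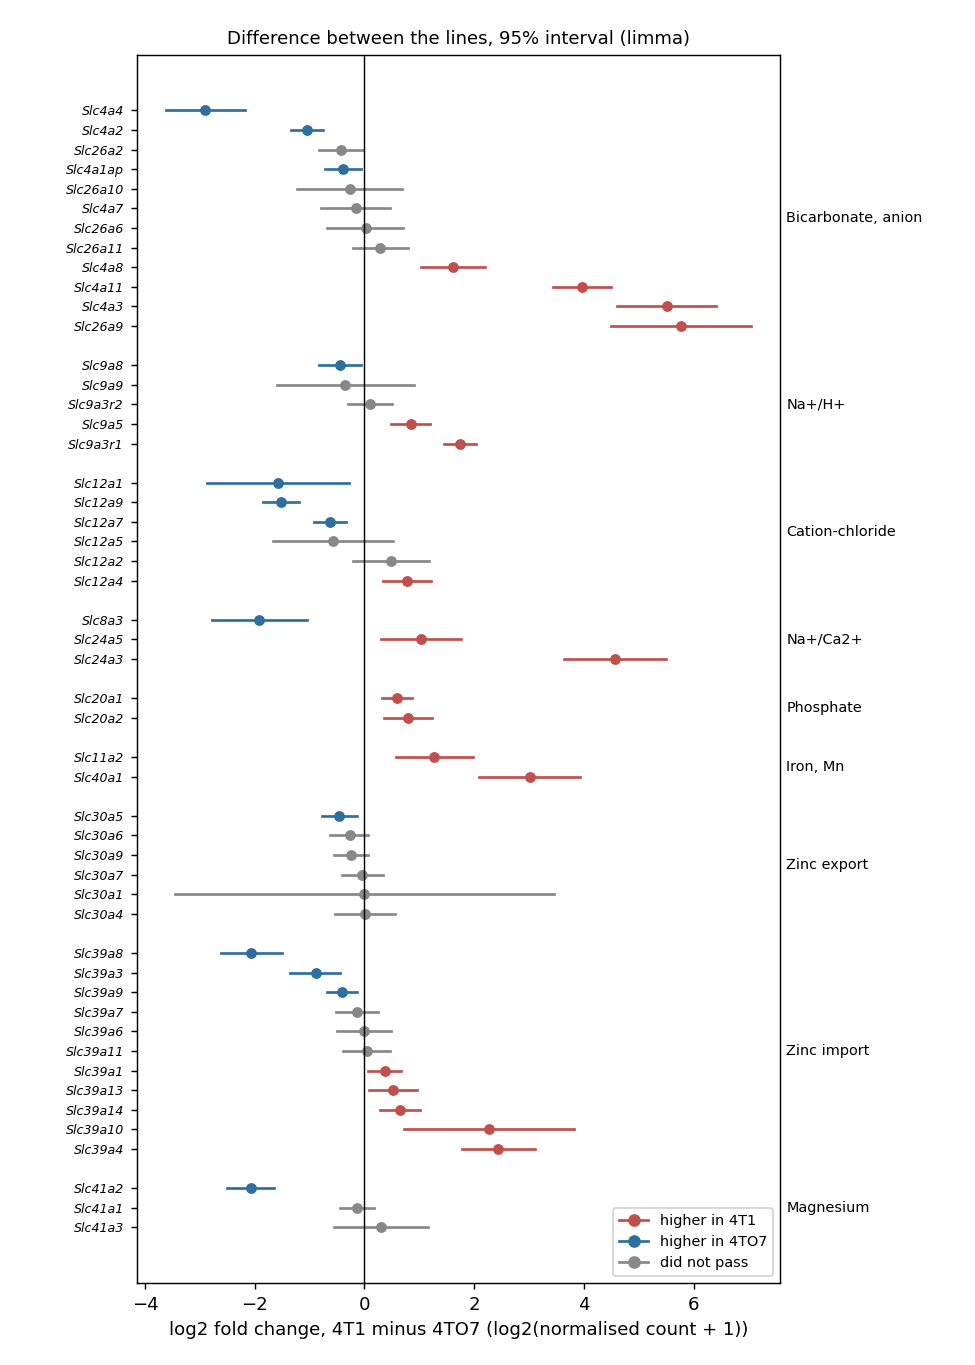
Log2 fold change (4T1 minus 4TO7, on the log2(normalised count + 1) scale) of 50 solute carriers that passed the filter, grouped by ion, with the 95% interval from limma. Red marks the 18 higher in 4T1, blue 13 higher in 4TO7 and grey the 19 that did not pass; both phosphate and both iron carriers lie to the right of 0, and Slc30a1 has the widest interval.

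The bicarbonate and anion carriers differed in both directions. Of 12 tested, 4 were higher in 4T1 (all genes, 25.1%) and 3 in 4TO7 (all genes, 23.9%), the latter including the adaptor gene Slc4a1ap. Their median log2 fold change was -0.07. Slc4a11, an Slc4 member that moves protons rather than bicarbonate, Slc4a8, a sodium-driven chloride-bicarbonate exchanger, and the epithelial chloride transporter Slc26a9 were the higher genes in 4T1, together with the anion exchanger Slc4a3. Slc4a4, the electrogenic sodium-bicarbonate cotransporter, and Slc4a2, the widespread chloride-bicarbonate exchanger, were higher in 4TO7.

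Slc4a11 (chr2:130684113-130697519, GRCm38) had normalised counts, in the order of replicates 1 to 3 used throughout, of 3064, 2666 and 3623 in 4T1 and 148, 261 and 200.1 in 4TO7. The lowest 4T1 library lay about an order of magnitude above the highest 4TO7 library. The means differed 15.4-fold (3118 ± 481 against 203 ± 56.6, log2 fold change 3.96 ± 0.23 SE, adjusted p = 3.73e-06). Slc26a9 (chr1:131744022-131771504) had 132, 108 and 159 in 4T1 and 1.87, 0 and 3.98 in 4TO7. It was thus close to absent from 4TO7, with 6 reads over the 3 libraries, and 68.2-fold higher in 4T1 (adjusted p = 6.96e-05). That fold rests on few reads and was 142 without 4TO7 replicate 3. Slc4a3 had 33.3, 73.7 and 35.7 in 4T1 and no read in 4TO7 (0 over its 3 libraries), at least 48.0-fold higher in 4T1 when 3 reads over the 4TO7 libraries are taken as the floor (adjusted p = 1.19e-05). Slc26a9 and Slc4a3 met the filter only through 4T1, where they were higher, so the anion count is partly set by the filter. In the fit without a filter, 5 anion carriers were higher in 4T1 and 2 in 4TO7.

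Slc4a8 had 1091, 1447 and 1812 in 4T1 against 430, 618 and 369 in 4TO7, with no overlap. Its mean was 3.07-fold higher in 4T1 (log2 fold change 1.62 ± 0.25 SE, adjusted p = 0.00111). In the other direction, Slc4a4 (chr5:88886818-89239653) had 155, 211 and 311 in 4T1 against 1913, 1098 and 2041 in 4TO7. The lines were well apart, although 4TO7 replicate 2 held the lowest 4TO7 value. The 4TO7 mean was 7.46-fold higher (log2 fold change -2.90 ± 0.32 SE, adjusted p = 0.000149). Slc4a2 had 2959, 3072 and 2775 in 4T1 against 5973, 5641 and 6601 in 4TO7, a tight 2.07-fold difference (adjusted p = 0.00026). The adaptor gene Slc4a1ap was 1.30-fold higher in 4TO7 (adjusted p = 0.0461), a call lost when any library but 4T1 replicate 2 was left out, with adjusted p from 0.0697 to 0.135 in those fits.

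Slc4a7, the electroneutral sodium-bicarbonate cotransporter, did not pass, with 2172, 4641 and 4375 in 4T1 and 4113, 4194 and 3566 in 4TO7. Its low value in 4T1 replicate 1 made the 4T1 range wide. The sulfate transporter Slc26a2 (1091 ± 210 against 1454 ± 116, adjusted p = 0.07) passed without 4T1 replicate 3 (adjusted p = 0.0299), and Slc26a10 passed without 4TO7 replicate 2 (adjusted p = 0.0205). Slc26a6 and Slc26a11 did not pass (adjusted p = 0.971 and 0.289). The other 10 anion carriers were under the filter, and Slc26a4, Slc26a5, Slc26a7 and Slc4a9 had 0 reads throughout.

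Among 14 other acid-base and anion genes, 11 were tested, of which 3 were higher in 4T1 (all genes, 25.1%) and 3 in 4TO7 (all genes, 23.9%). Car12, a membrane carbonic anhydrase, was 2.99-fold higher in 4T1, and cytosolic Car2 had a ratio of reads of 102 (95% counting interval 17.9 to 4064) on 1 read in 4TO7, in replicate 3. Car2 met the filter only through 4T1, where it was higher. The chloride channel gene Ano1 was 2.69-fold higher in 4TO7 (adjusted p = 0.0071). Slc16a1, a lactate and proton carrier, was 1.45-fold higher in 4T1 (adjusted p = 0.0275). Leaving out any 1 of 4 libraries (4T1 replicates 1 and 2, 4TO7 replicates 1 and 3) ended that call, with adjusted p from 0.056 to 0.112.

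Sodium-proton exchangers showed small differences, and the largest fold among those tested was in a scaffold gene. Of 7 tested, both scaffold genes included, 2 were higher in 4T1 (all genes, 25.1%) and 3 in 4TO7 (all genes, 23.9%). The count in 4TO7 fell to 0 without 4T1 replicate 3, 4TO7 replicate 1 or 4TO7 replicate 3. It also fell to 0 in limma without trend or robust variances. Slc9a3r1, which encodes the NHERF1 scaffold that ties membrane proteins to ezrin, had 2839, 2664 and 2813 in 4T1 against 841, 776 and 861 in 4TO7. These values were among the most even within a line of all carriers, and the 4T1 mean was 3.36-fold higher (log2 fold change 1.75 ± 0.13 SE, adjusted p = 1.39e-05). Ezr itself, which encodes ezrin, was 2.15-fold higher in 4T1 (adjusted p = 0.000118). Slc9a3r2 did not pass (720 ± 43.5 against 676 ± 118).

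The Golgi exchanger Slc9a8 was 1.36-fold higher in 4TO7 (910 ± 150 against 1235 ± 80.4), close to the threshold (adjusted p = 0.0499). It lost its call without 4T1 replicate 2 or 3 or 4TO7 replicate 1 or 3 (adjusted p from 0.112 to 0.156). Slc9a5 was 1.79-fold higher in 4T1 (1475 ± 146 against 824 ± 85.5, adjusted p = 0.00236). The endosomal exchanger Slc9a9 did not pass (adjusted p = 0.621) but did without 4TO7 replicate 2 (adjusted p = 0.013, 2.09-fold higher in 4TO7). Under the filter, Slc9a2 had 36 reads in 4T1 and 0 in 4TO7, which is at least 12-fold higher, and Slc9a7 had 17 reads against 0. Both passed in the fit without a filter (adjusted p = 4.31e-05 and 0.000871). Slc9a3 and Slc9a4 had at most 2 reads in all.

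Of 7 cation-chloride cotransporters tested, 4 were higher in 4TO7 (all genes, 23.9%) and 1 in 4T1 (all genes, 25.1%). Without 4T1 replicate 1, 3 were higher in 4TO7 and 2 in 4T1. The 7 had a median log2 fold change of -0.62. Slc12a9, a family member that can bind and modulate other cotransporters, had 642, 620 and 591 in 4T1 against 1665, 1926 and 1729 in 4TO7. The lines were far apart relative to their spread, 2.87-fold higher in 4TO7 (log2 fold change -1.52 ± 0.14 SE, adjusted p = 4.96e-05). Slc12a7, encoding the potassium-chloride cotransporter KCC4, was 1.55-fold higher in 4TO7 (adjusted p = 0.00455), whereas Slc12a4, encoding KCC1, was 1.70-fold higher in 4T1 (3072 ± 435 against 1805 ± 417, adjusted p = 0.0105). These relatives thus differed in opposite directions.

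The sodium-potassium-chloride cotransporter Slc12a2 (NKCC1), the most abundant of the family, had 5095, 12097 and 9483 in 4T1 against 4834, 7080 and 6278 in 4TO7. The ranges overlapped because 4T1 replicate 1 was low, and the gene did not pass (log2 fold change 0.48, 95% interval -0.21 to 1.18, adjusted p = 0.219). Without 4T1 replicate 1 it passed (1.78-fold higher in 4T1, adjusted p = 0.0191). Slc12a1, its renal relative, was barely detected, with 6.05, 5.98 and 15.4 in 4T1 and 35.6, 11.5 and 45.8 in 4TO7. Those lines overlapped. It passed at an adjusted p of 0.047, 3.38-fold higher in 4TO7 and 5.15-fold when 4T1 replicate 3 was left out. Leaving out 4T1 replicate 1, 4T1 replicate 2, 4TO7 replicate 1 or 4TO7 replicate 3 ended the call (adjusted p = 0.153, 0.145, 0.136 and 0.151). Slc12a5 did not pass (adjusted p = 0.352) but did without 4TO7 replicate 2 (adjusted p = 0.0182).

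Some of the kinases that act on these carriers also differed. Of 19 sodium, potassium and volume genes, 14 were tested, 6 higher in 4T1 (all genes, 25.1%) and 4 in 4TO7 (all genes, 23.9%). The kinase gene Wnk1 did not pass (17076 ± 4278 against 16371 ± 542, adjusted p = 0.914). Wnk2 did not pass either (adjusted p = 0.059), but did without 4TO7 replicate 3 (adjusted p = 0.0212). Wnk3 and Wnk4 were under the filter. Stk39, the kinase SPAK that phosphorylates cation-chloride cotransporters, had 4959, 4999 and 4953 in 4T1 against 537, 799 and 623 in 4TO7. Its values were nearly equal across 4T1 and 7.61-fold higher there (adjusted p = 3.24e-06), and its relative Oxsr1 was 2.28-fold higher in 4T1 (adjusted p = 0.00105). Atp1b1 was 7.92-fold higher in 4T1 (adjusted p = 0.00019). Sgk1 was 1.5-fold higher in 4TO7 (adjusted p = 0.0432), a call lost without any library but 4TO7 replicate 1 (adjusted p from 0.0604 to 0.132).

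**Figure D2:**
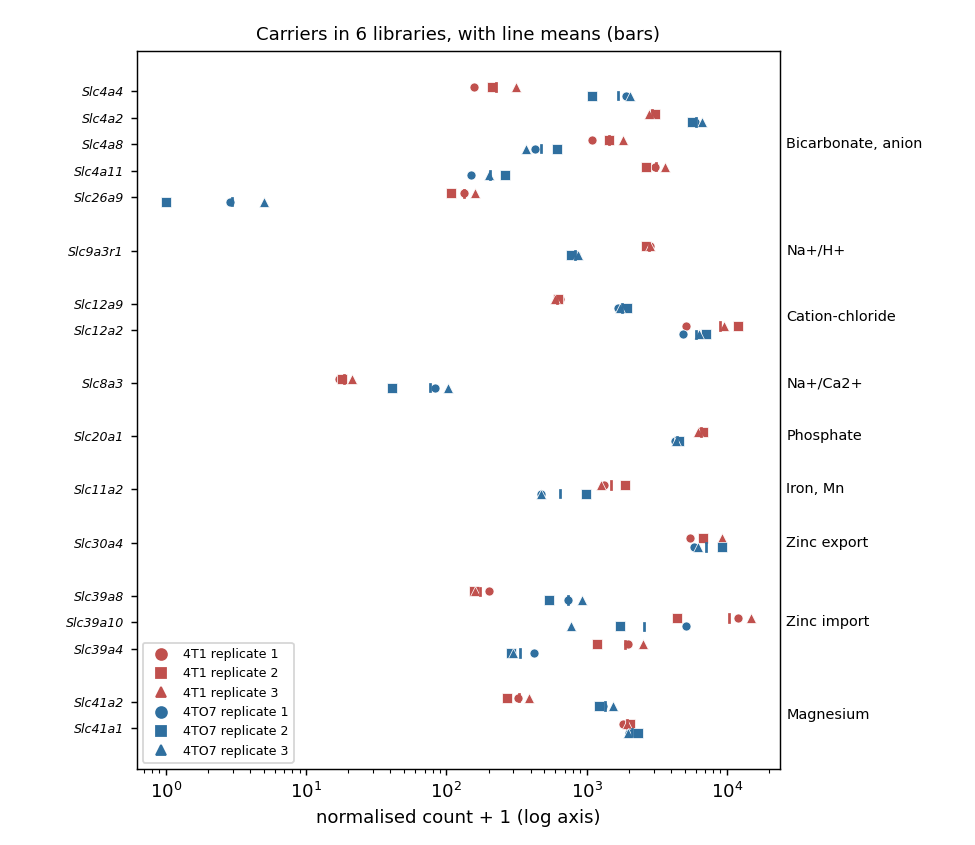
Normalised count + 1 (log axis) in each of the 6 libraries for 17 solute carriers, abundant members of the ion groups and those that passed with at least a 2-fold difference and whose higher line averaged 100 or more. Shapes mark the replicate and bars the line means; Slc4a11 and Slc26a9 show the widest gaps, whereas the lines overlap for Slc12a2, Slc30a4, Slc41a1 and Slc39a10.

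Calcium exchangers were expressed at low levels, and the 3 of 8 that were tested all passed (all genes, 49.0%). Slc24a3 and Slc24a5 met the filter only through 4T1, where they were higher, so this count is partly set by the filter. In the fit without a filter, 1 calcium exchanger was higher in 4T1 and 1 in 4TO7. Slc8a3, a plasma membrane sodium-calcium exchanger, had 16.1, 16.9 and 20.3 in 4T1 against 82.3, 39.8 and 103 in 4TO7. There was no overlap, and the 4TO7 mean was 4.21-fold higher (log2 fold change -1.92 ± 0.38 SE, adjusted p = 0.00362). Slc24a3, a potassium-dependent sodium-calcium exchanger, went the other way, with 31.3, 33.9 and 23.2 in 4T1 and 1 read over all 4TO7 libraries (replicate 2). Its ratio of reads was 88.9 (95% counting interval 15.6 to 3551, adjusted p = 4.3e-05). Slc24a5, known for its role in pigment cells, was 2.23-fold higher in 4T1 on 51 against 23 reads (adjusted p = 0.0262). That call was lost without 4T1 replicate 2, 4TO7 replicate 1 or 4TO7 replicate 3 (adjusted p = 0.0865, 0.062 and 0.0832). Slc8a1, the exchanger of heart muscle, and Slc8a2 had at most 3 reads in all. Among 14 other calcium genes 12 were tested, 2 higher in 4T1 (all genes, 25.1%) and 2 in 4TO7 (all genes, 23.9%). Higher in 4T1 were Mcu, the pore of the mitochondrial calcium uniporter (2.16-fold), and Orai1, a store-operated channel (2.07-fold). Higher in 4TO7 were Stim2, a sensor of stored calcium (1.70-fold), and Atp2c2, a Golgi calcium and manganese pump (1.76-fold).

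Both broadly expressed phosphate importers, the only phosphate carriers tested, were higher in 4T1 (all genes, 25.1%). Slc20a1 (PiT1) had 6764, 6778 and 6225 in 4T1 against 4289, 4526 and 4327 in 4TO7. The libraries of a line were close together, and the 4T1 mean was 1.5-fold higher (log2 fold change 0.59 ± 0.12 SE, adjusted p = 0.00381). Slc20a2 (PiT2) had 6434, 6051 and 5437 in 4T1 against 2794, 4602 and 3167 in 4TO7, again without overlap and 1.70-fold higher (adjusted p = 0.0102). The Slc34 phosphate carriers of kidney, gut and lung had 1 read between them. The phosphate exporter Xpr1 did not pass (adjusted p = 0.209). Of 6 other phosphate genes tested, Alpl, alkaline phosphatase (8.34-fold), and the inorganic pyrophosphatase Ppa1 (3.20-fold, 4.98-fold without 4TO7 replicate 2) were higher in 4T1. Ank, linked to pyrophosphate export (2.47-fold), and Fgfr1, a receptor for phosphate-regulating FGF23 (12.7-fold), were higher in 4TO7. Fgfr1 was uneven there, with 1144, 200 and 1211. From the same list, Fgf23 had 0 reads throughout, and Kl had 2 reads in 4T1 and 0 in 4TO7.

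Of the 3 iron carriers 2 were tested, and both were higher in 4T1 (all genes, 25.1%), the importer and the exporter alike. The RNA hairpins through which iron-regulatory proteins are known to act were located in the GENCODE transcripts of GRCm38 to show where these genes carry them. The search took an unpaired C, 5 base pairs and the loop CAGTGN, allowing 1 unpaired base in the second arm. Such a match occurred in 5.25% of the 11997 tested genes that have a coding transcript, and one without that unpaired base in 1.77%. A match is thus a description of the letters and not a shown site. Of the matches printed, that of Slc11a2 alone holds the unpaired base, and each lies in 1 annotated coding transcript. The ferritin genes Fth1 and Ftl1, which did not pass, also hold a match before the coding region, not printed here. In each sequence the capitals mark the loop.
Slc11a2, after the coding region, chr15:100395158-100395175, minus strand: cagagcCAGTGTgtttct
Slc40a1, before the coding region, chr1:45925471-45925487, minus strand: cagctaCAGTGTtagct
Tfrc, after the coding region, chr16:32631225-32631241, plus strand: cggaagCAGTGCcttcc
Tfrc, after the coding region, chr16:32631604-32631620, plus strand: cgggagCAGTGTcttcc
Tfrc, after the coding region, chr16:32631669-32631685, plus strand: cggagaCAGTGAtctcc
Tfrc, after the coding region, chr16:32631716-32631732, plus strand: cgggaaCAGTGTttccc

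Slc11a2 (DMT1), which brings iron and manganese into the cytosol, had 1321, 1869 and 1269 in 4T1 against 472, 982 and 476 in 4TO7. No 4TO7 library reached the 4T1 range, and the 4T1 mean was 2.31-fold higher (log2 fold change 1.27 ± 0.30 SE, adjusted p = 0.00876). Tfrc, the transferrin receptor, which carries its hairpins on the same side of the coding region, had 15408, 24731 and 15255 in 4T1 against 3830, 11858 and 4094 in 4TO7. Both genes were highest in replicate 2 of each line, and any part of the hairpins in this was not tested. Among all genes that differed, 4TO7 replicate 2 was the 4TO7 library nearest to 4T1 in 62.5%. Tfrc was 2.80-fold higher in 4T1 (adjusted p = 0.0113), 4.66-fold without 4TO7 replicate 2, and did not pass without 4T1 replicate 2 (adjusted p = 0.053).

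Slc40a1 (ferroportin), the iron exporter, had 75.7, 97.6 and 121 in 4T1 against 11.2, 6.29 and 18.9 in 4TO7. The lines did not overlap, the lowest value was in 4TO7 replicate 2, and the 4T1 mean was 8.07-fold higher (log2 fold change 3.01 ± 0.40 SE, adjusted p = 0.000484). Slc11a1, the carrier of macrophage phagosomes, had 14 reads in 4T1 and 4 in 4TO7. Of 21 further iron and manganese genes, 16 were tested, 3 higher in 4T1 (all genes, 25.1%) and 1 in 4TO7 (all genes, 23.9%). The ferrireductase gene Steap3 was 2.33-fold higher in 4TO7 (adjusted p = 0.00148), while Steap4 had a ratio of reads of 64.4 (95% counting interval 17.5 to 538, and 43.7 without 4TO7 replicate 2) in favour of 4T1. Steap4 met the filter only through 4T1, where it was higher. Atp13a1 was 1.79-fold higher in 4T1 (adjusted p = 0.0126) but not without 4T1 replicate 1 or 2 (adjusted p = 0.0549 and 0.0542). The ferritin genes Fth1 and Ftl1 did not pass (adjusted p = 0.562 and 0.0655), although Ftl1 did without 4TO7 replicate 2 (1.32-fold higher in 4TO7, adjusted p = 0.0358).

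Zinc importers differed in both directions. Of 11 Slc39 genes tested, 5 were higher in 4T1 (all genes, 25.1%) and 3 in 4TO7 (all genes, 23.9%). The 5 fell to 3 by edgeR, with TMM, equal-total or quantile scaling, without a filter and in limma without trend or robust variances. Leaving out 1 library gave 2 to 4 higher in 4T1 and 2 or 3 in 4TO7. Their log2 fold changes had a median of 0.04. Slc39a4 (ZIP4), the importer of the gut, and Slc39a10 (ZIP10), a plasma membrane importer, were several-fold higher in 4T1. Slc39a8 (ZIP8), which carries zinc, manganese and iron, was several-fold higher in 4TO7. Its close relative Slc39a14 (ZIP14), with the same metals, was higher in 4T1.

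Slc39a4 (chr15:76612383-76617384) had 1984, 1178 and 2514 in 4T1 against 419, 290.3 and 299.6 in 4TO7. Every 4T1 library lay above every 4TO7 library, 5.62-fold on the means (log2 fold change 2.44 ± 0.29 SE, adjusted p = 0.000237). Slc39a8 (chr3:135825279-135888572) had 202, 157 and 159 in 4T1 against 738, 537 and 932 in 4TO7, likewise without overlap. Its 4TO7 mean was 4.26-fold higher (log2 fold change -2.06 ± 0.24 SE, adjusted p = 0.000237). Slc39a14 had 3368, 4109 and 3746 in 4T1 against 2110, 2886 and 2214 in 4TO7. The lines did not overlap and the 4T1 mean was 1.56-fold higher (adjusted p = 0.011), a call lost without 4TO7 replicate 1 (adjusted p = 0.0512). Slc39a3 (ZIP3), a plasma membrane importer, was 1.88-fold higher in 4TO7 (adjusted p = 0.00645).

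Smaller differences were found for 3 further importers. Slc39a9 was 1.33-fold higher in 4TO7 (adjusted p = 0.0228, and from 0.0533 to 0.0882 without 4T1 replicate 2 or 3 or 4TO7 replicate 1 or 3, where the call was lost). Slc39a1 (ZIP1) was 1.29-fold higher in 4T1 (adjusted p = 0.0446) and lost its call whichever library was left out (adjusted p from 0.0708 to 0.114). Slc39a13 was 1.45-fold higher in 4T1 (adjusted p = 0.0471), with overlapping lines, and lost its call without 4T1 replicate 1 or 3 or 4TO7 replicate 1 or 3 (adjusted p from 0.0936 to 0.156). Both Slc39a1 and Slc39a13 also lost their calls by edgeR, with TMM, equal-total or quantile scaling, and in limma without trend or robust variances, Slc39a1 also without a filter. Slc39a6 (ZIP6), which pairs with Slc39a10, did not pass, with 2986, 3834 and 2751 in 4T1 against 2710, 4281 and 2781 in 4TO7 (95% interval of the log2 fold change -0.50 to 0.48). Slc39a7, an importer of the endoplasmic reticulum, and Slc39a11 did not pass either (adjusted p = 0.537 and 0.866). Slc39a2, Slc39a5 and Slc39a12 were under the filter.

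Slc39a10 had 12043, 4406 and 14798 in 4T1 against 5153, 1730.3 and 776 in 4TO7. The lines overlapped, since 4T1 replicate 2 lay below 4TO7 replicate 1, and the spread within each line was wide. The 4T1 mean was 4.08-fold higher (10416 ± 5384 against 2553 ± 2302, log2 fold change 2.27 ± 0.67 SE, adjusted p = 0.0231) and 8.31-fold higher without 4TO7 replicate 1. The call was lost without 4T1 replicate 1, 4T1 replicate 3, 4TO7 replicate 2 or 4TO7 replicate 3 (adjusted p = 0.0994, 0.0757, 0.103 and 0.0573), and also when no filter on low values was applied (adjusted p = 0.129).

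Of 6 zinc exporters (Slc30) tested, 1 differed between the lines (all genes, 49.0%). Another varied between libraries of the same line more than nearly any other gene. Higher in 4TO7 was Slc30a5, of the early secretory pathway (1.38-fold, adjusted p = 0.0252, with the call lost without 4T1 replicate 1, 4T1 replicate 3 or 4TO7 replicate 3 at adjusted p = 0.0531, 0.089 and 0.065). Its partner Slc30a6 did not pass (adjusted p = 0.165), nor did the Golgi exporter Slc30a7 or Slc30a9 (adjusted p = 0.859 and 0.165). Slc30a4, the most abundant exporter, had 5418, 6767 and 9179 in 4T1 against 5798, 9206 and 6231 in 4TO7, and the lines overlapped throughout (95% interval of the log2 fold change -0.54 to 0.55). Slc30a2, its relative in zinc secretion into milk, had 0 reads in 4T1 and 17.8, 9.43 and 23.9 in 4TO7, at least 17.4-fold higher in 4TO7 on 52 reads. It was under the filter and passed in the fit without one (adjusted p = 2.61e-05). Slc30a8, the exporter of insulin granules, and Slc30a10, a manganese exporter, had 0 reads.

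Slc30a1 (ZnT1), the plasma membrane zinc exporter, had 71.6, 698 and 43.4 in 4T1 and 10.3, 405 and 488 in 4TO7. It was high in 4T1 replicate 2 and in 4TO7 replicates 2 and 3 and low in the other three libraries, and it did not pass (log2 fold change 0.00, 95% interval -3.45 to 3.46, adjusted p = 0.998). Its highest library exceeded its lowest 16.1-fold within 4T1 and 47.4-fold within 4TO7. The SD within a line, on the log2(normalised count + 1) scale, was 2.63, the rank of 4 among all 14276 genes tested, for which the median was 0.26. The metallothionein genes, whose proteins bind zinc, showed the same high and low libraries. Mt1 had 478, 3480 and 421 in 4T1 and 303, 2946 and 4870 in 4TO7 (adjusted p = 0.537). Mt2 had 37.3, 2364 and 92.7 in 4T1 and 53.3, 1685 and 3297 in 4TO7 (adjusted p = 0.456). Mt2 had the largest SD within a line of all genes tested (3.15) and Mt1 the rank of 8 (1.93). Slc39a10 had its lowest 4T1 value and its 2 lowest 4TO7 values in the libraries where these 3 genes were high, and its SD of 1.17 ranked 104. In those libraries Slc39a10 had 4406 in 4T1 against 1730.3 and 776 in 4TO7, and in the others 12043 and 14798 against 5153. More of the high libraries belong to 4TO7, and the part of this imbalance in the fold of Slc39a10 between the lines was not tested. What sets these libraries apart was not tested, and the labels give no batch. Mtf1 itself varied little (SD 0.15) and did not pass (adjusted p = 0.0517).

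**Figure D3:**
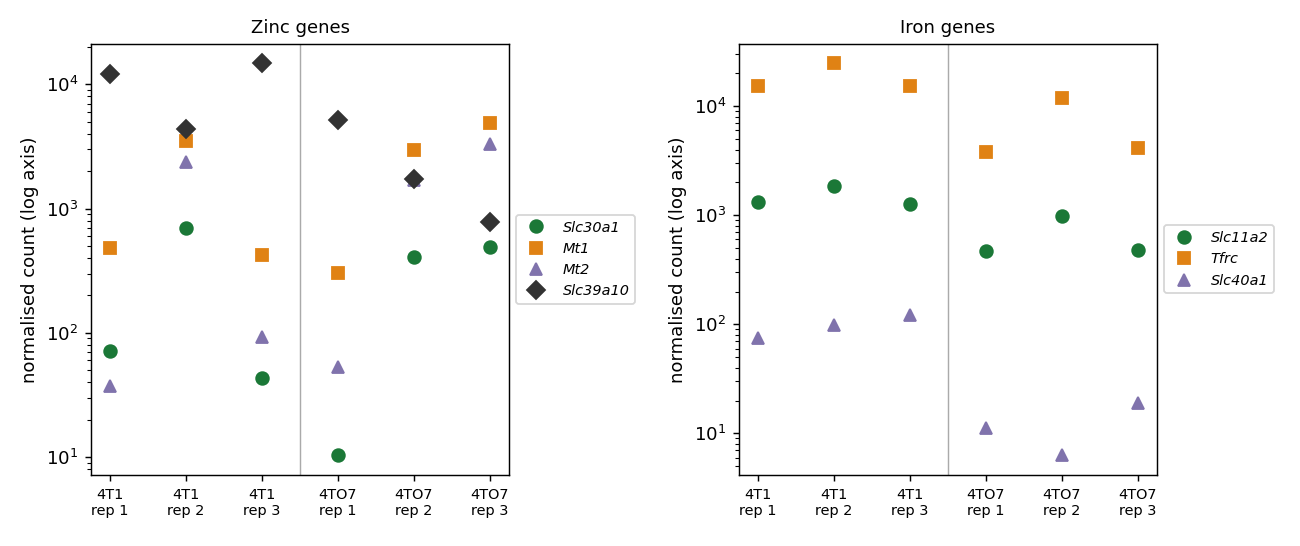
Normalised counts (log axis) of zinc genes (left) and iron genes (right) in each library, with 4T1 left and 4TO7 right of the grey line in each panel. Slc30a1, Mt1 and Mt2 are high in 4T1 replicate 2 and 4TO7 replicates 2 and 3, where Slc39a10 is low for its line; Slc11a2 and Tfrc are highest in replicate 2 of both lines.

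The promoters of the 3 genes that were high together are shown because metal response elements are a known feature of them. Each window covers 250 bases before to 50 after the start of the gene, 300 bases in all, from RefSeq on GRCm38.p6. The letters TGCACNC and TGCGCNC were searched on both strands and are in capitals. At least 1 match was found in 25.7% of 32851 promoter windows and 2 or more in 7.11%.
Slc30a1, 2 matches, chr1:191906531-191906830, plus strand: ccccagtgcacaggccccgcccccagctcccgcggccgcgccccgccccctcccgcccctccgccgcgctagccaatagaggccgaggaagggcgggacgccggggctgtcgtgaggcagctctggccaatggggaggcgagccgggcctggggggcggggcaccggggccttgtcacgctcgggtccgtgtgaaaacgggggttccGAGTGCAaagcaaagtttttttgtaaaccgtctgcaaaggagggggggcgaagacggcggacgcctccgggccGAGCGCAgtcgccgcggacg
Mt1, 3 matches, chr8:94178839-94179138, plus strand: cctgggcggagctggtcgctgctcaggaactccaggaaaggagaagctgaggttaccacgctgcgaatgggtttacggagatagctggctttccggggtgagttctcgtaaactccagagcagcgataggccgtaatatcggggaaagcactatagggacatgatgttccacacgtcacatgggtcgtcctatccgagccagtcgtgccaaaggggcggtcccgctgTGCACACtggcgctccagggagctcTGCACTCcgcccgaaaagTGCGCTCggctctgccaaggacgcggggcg
Mt2, 4 matches, chr8:94172368-94172667, plus strand: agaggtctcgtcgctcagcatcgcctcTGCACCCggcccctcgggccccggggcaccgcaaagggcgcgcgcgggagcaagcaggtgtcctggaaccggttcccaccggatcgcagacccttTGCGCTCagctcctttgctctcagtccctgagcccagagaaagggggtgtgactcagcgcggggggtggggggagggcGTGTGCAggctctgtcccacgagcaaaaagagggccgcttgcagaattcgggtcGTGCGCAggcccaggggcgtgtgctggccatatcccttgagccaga

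The RefSeq window of Slc39a10 that lies within its annotated gene (chr1:46853569-46853868, minus strand) held 0 matches. Windows were found for 66 of the 85 carriers. Slc30a4 has 3 matches, as many as Mt1. Slc30a10 also has 3, and Slc4a2, Slc24a3, Slc30a2, Slc34a2 and Slc34a3 have 2, as many as Slc30a1. Of these, Slc4a2 had an SD within a line of 0.10 on the log2 scale. Any part of the matches in the spread between libraries was not tested. A match is not a shown binding site, and a window without one says nothing about sites elsewhere. Of 9 other zinc genes found, 6 were tested. Gpr39, a receptor that responds to zinc, was 61.5-fold higher in 4T1 (1085, 832 and 959 against 11.2, 13.6 and 21.9, adjusted p = 1.27e-06). Mcoln1, a lysosomal cation channel, was 1.40-fold higher in 4TO7 (adjusted p = 0.0251), with the call lost without 4T1 replicate 2, 4TO7 replicate 1 or 4TO7 replicate 3 (adjusted p = 0.08, 0.078 and 0.0826).

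Of the 3 magnesium carriers, 1 differed (all genes, 49.0%). Slc41a2 had 325, 269 and 385 in 4T1 against 1315, 1227 and 1545 in 4TO7. The lines were well separated, and the 4TO7 mean was 4.17-fold higher (log2 fold change -2.07 ± 0.19 SE, adjusted p = 4.9e-05). Slc41a1, a plasma membrane sodium-magnesium exchanger, had 1804, 2033 and 1938 in 4T1 against 2000.3, 2343 and 1986 in 4TO7 and did not pass (95% interval of the log2 fold change -0.44 to 0.18). The mitochondrial carrier gene Slc41a3 did not pass (adjusted p = 0.54). Among 14 other magnesium genes, 13 were tested, with 3 higher in 4T1 (all genes, 25.1%) and 2 in 4TO7 (all genes, 23.9%). Among the CNNM genes, which encode regulators of magnesium efflux, Cnnm4 was 3.13-fold higher in 4T1 (adjusted p = 0.0002) and Cnnm2 was 4.2-fold higher in 4TO7 (adjusted p = 0.000372), Cnnm3 did not pass (adjusted p = 0.41) and Cnnm1 had 0 reads. Ptp4a3, a phosphatase that binds CNNM proteins, was 2.12-fold higher in 4T1, and Nipa1 was 1.57-fold higher in 4TO7.

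Levels can be compared between genes only per length. In mean normalised counts per kb of exon, 14 of the 53 tested carriers exceeded 500 in their higher line and 5 (Slc4a3, Slc9a9, Slc12a1, Slc24a3 and Slc24a5) stayed under 10. Slc39a10 led in 4T1 at 1709 per kb and stood at 419 in 4TO7. Slc30a4 led in 4TO7 at 1291 per kb, with 1299 in 4T1. Slc39a1 was next in both lines, at 1624 per kb in 4T1 and 1260 in 4TO7. The following place was held by Slc9a3r1 in 4T1 (1440, against 429 in 4TO7) and by Slc39a6 in 4TO7 (800, against 783 in 4T1). Per kb, Slc4a11 lay above Slc4a2 in 4T1 (624 against 353) and below it in 4TO7 (40.6 against 730). Levels of different genes were not tested against each other. The order of the leaders changed when single libraries were left out: without 4T1 replicate 3 Slc39a10 stood at 1349 per kb in 4T1, below Slc39a1 and Slc9a3r1, and without 4TO7 replicate 2 Slc30a4 stood at 1097 in 4TO7, below Slc39a1.

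**Figure D4:**
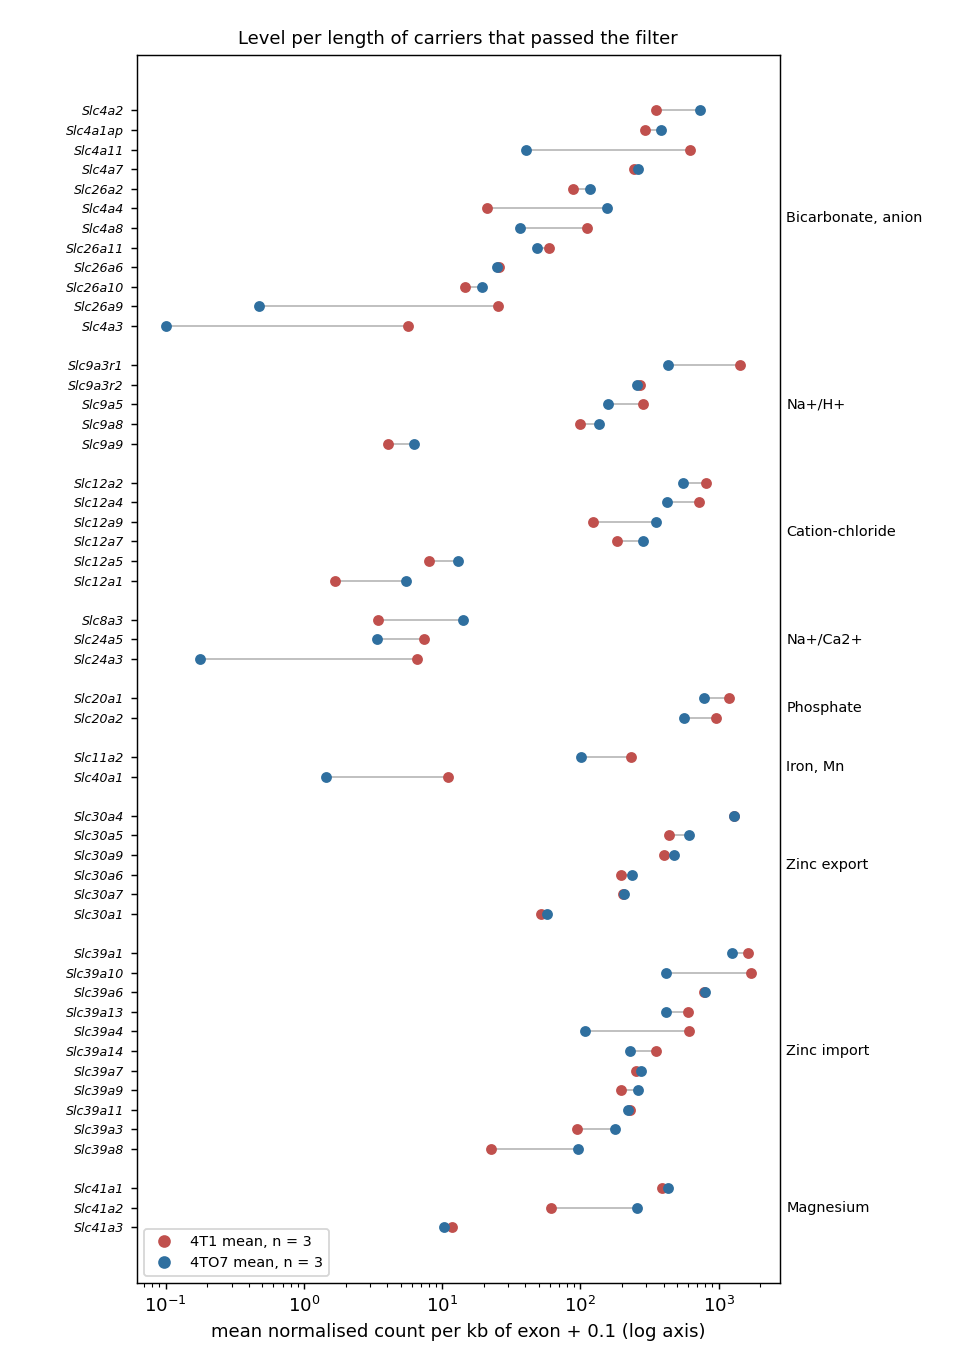
Mean normalised count per kb of exon, plus 0.1, on a log axis, for 50 carriers that passed the filter (red, 4T1; blue, 4TO7; n = 3 libraries per line, no error shown), joined by a grey line and ordered by level within each ion group. Slc39a10, Slc39a1, Slc30a4, Slc9a3r1 and Slc20a1 lie farthest to the right, and Slc4a3, Slc26a9 and Slc24a3 show the longest lines.

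Exon bases are shared with another annotated gene by 16 of the 53 tested carriers, 11 of which passed, 10 of them with a gene on the opposite strand. Among these are Slc4a2 with Fastk, Slc20a2 with Smim19 and Slc39a13 with Psmc3. No source used here gives the strand setting of the counting, and reads in the shared bases cannot be assigned. In the authors' deposited table, 62 of the carriers had an adjusted p, of which 36 passed 0.05, with 19 higher in 4T1 and 17 in 4TO7, and 33 were called in the same direction there and in the limma fit.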

How the data were processed

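Total RNA of 3 libraries per line was analysed from 1 deposited table. The submitters' processing notes name STAR 2.5, featureCounts 1.5, DESeq2 (no version) and the build GRCm38. The sample columns hold a deposited normalised signal, gene reads divided by 1 size factor per library (0.954 to 1.07), per the file headers and a check of the steps. The authors' own comparison in the same table holds a log2 fold change, a test score, a p-value and an adjusted p. The annotation release counted and the strand setting are not given in the sources used here. In each column 100% of values were whole multiples (within 1e-06) of 1 read, which gave the reads per library.

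Values were tested as deposited on log2(value + 1) with limma 3.58.1 in R 4.3.3 (group alone, intensity trend, robust, two-sided, Benjamini-Hochberg, threshold 0.05). The log2(value + 1) scale understates changes of genes with few reads. Folds against 0 reads use a floor of 3 reads over the line, and 1 to 3 reads give a ratio with an exact 95% interval. Both cover counting error only. Exon lengths, gene spans and hairpins came from the GENCODE annotation given for GRCm38. The fit was tested on simulated data. Alternatives were other pseudocounts, filters, scalings and variance models, edgeR 4.0.16, DESeq2 1.42.0, a replicate block and leaving out each library.

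Per-library values are given for the most abundant carrier of each ion group and for those with an adjusted p under 0.05, a log2 fold change of 1 or more in size and a higher line averaging 100 or more. Other genes given in full were chosen after their values were seen. The carriers, the lists of related genes and the marker lists were chosen with earlier results of these data known, and 3 related genes (Ankh, Trpml1, Tmem94) were not matched. Some genes are not reported here by name.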

Additional observations from a re-analysis of the deposited data

How the results depend on the processing

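Of the 34 carriers that differed, 22 passed in each of the 17 alternatives that tested them, 12 were lost in at least 1, and 0 changed direction. Of the 19 that did not pass, 6 passed in at least 1 alternative. Against 18 carriers higher in 4T1 and 16 in 4TO7, leaving out 1 library gave 14 to 16 and 9 to 17, with 10 without 4TO7 replicate 1 and 9 without 4TO7 replicate 3. These fits have fewer samples, and a line of 2 keeps a pooled spread. DESeq2 gave 17 and 16, edgeR 16 and 16, and limma without trend or robust variances 16 and 11. For the related genes (20 and 15), leaving out 1 library gave 18 to 24 and 12 to 19. Among carriers named in the text, calls were also lost without a filter (Slc4a1ap, Slc24a5, Slc9a8, Slc39a1, Slc39a9, Slc39a10), in limma without trend or robust variances (Slc4a1ap, Slc12a1, Slc9a8, Slc39a1, Slc39a13), by DESeq2 (Slc24a5) and with pseudocounts of 0.5 (Slc12a1) and 5 (Slc9a8). Without a filter, 5 carriers that had been under it passed, 3 higher in 4T1 and 2 in 4TO7. Scaling to equal totals moved the median log2 fold change of all genes by -0.128 and gave 16 and 18 carriers and 19 and 22 related genes; all genes tested then split 2968 and 4060 against 3585 and 3412. Leaving out 1 library gave 2751 to 4162 and 2491 to 3902 of all genes.

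Samples with the same replicate number correlated in their deviations from the line means at -0.0135, 0.266 and 0.328. Those with different numbers ranged from -0.391 to 0.269. These values cannot tell whether the numbers pair the samples. Not every sample correlated best with its own number. A fit with the replicate block ended the call of Slc39a13 and gave 18 and 16 carriers, 23 and 20 related genes, and 3990 and 3760 of all genes.

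Direction changed only for carriers that did not pass, given here as log2 fold changes. Ranges are over fits without 1 library. For Slc30a1 (0.00) the values were -0.17 by DESeq2, -0.20 by edgeR, -0.03 by TMM, -0.12 at equal totals and -0.08 with a pseudocount of 5, with a range of -1.76 (without 4TO7 replicate 1) to 0.96. For Slc30a4 (0.01) they were -0.01, -0.03, -0.03 and -0.12 in the first 4 of these settings and -0.12 by quantile scaling, with a range of -0.19 to 0.21. For Slc26a6 (0.02) they were -0.02 by TMM and -0.11 at equal totals, with a range of -0.26 to 0.21. At equal totals Slc39a11 had -0.09 and Slc9a3r2 -0.02, with ranges of -0.08 to 0.17 and -0.04 to 0.22. The other ranges that crossed 0 were -0.77 to 0.02 for Slc26a10, -0.15 to 0.11 for Slc30a7, -0.15 to 0.20 for Slc39a6, -0.09 to 0.56 for Slc41a3, -0.36 to 0.19 for Slc4a7 and -1.04 to 0.01 for Slc9a9. The cause of these changes was not tested. Depth was low for Slc24a5 (51 and 23 reads) and Slc12a1 (28 and 95), and its part in their lost calls was not tested.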
